A study of Mus musculus with 12 samples.

Results

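Lymphotoxin, TNF and a set of their receptors were followed across 3 genotypes of mouse bone-marrow pro-B cells, the early B-lineage precursors in which the immunoglobulin heavy chain is rearranged. The 10 genes were Lta, Ltb and Tnf (the ligands), Ltbr, Tnfrsf1a and Tnfrsf1b (the receptors of those ligands), Tnfrsf13b and Tnfrsf13c (receptors of the B-cell survival factor BAFF), and Cd40 and Cd27 (receptors of T-cell help). They were taken by gene symbol out of 19938 genes that the platform annotation names through a transcript cluster with a single symbol, and each had 1 such cluster. The set was chosen by values measured on these same arrays, namely the difference in Lta among the wild-type arrays. The Lta values are therefore given as a description, with no test, and the tests on the other 9 genes are no independent evidence.

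The groups were Cd72+/-;Pax5+/- cells (arrays 9 to 12), Pax5+/- cells (arrays 1 to 4) and wild-type (WT) cells (arrays 5 to 8), 4 arrays each, numbered as in the sample titles. Cd72+/-;Pax5+/- cells carry 1 altered allele of Cd72, the gene of an inhibitory receptor on the B-cell surface, and 1 of Pax5, the transcription factor that commits cells to the B lineage. Pax5+/- cells carry the Pax5 alteration alone. By the labels the mutant cells are preleukemic precursor B cells and the WT cells pro-B cells. All mice were kept under specific pathogen-free conditions and were 1 month old. The sources used here do not state strain, sex, the kind of allele or the sorting gate. They also do not tie arrays to animals, so each p-value reflects array-to-array spread that may be technical.

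TNF and the lymphotoxins are related cytokines. The Lta product alone forms a secreted trimer that binds the TNF receptors, and together with the product of Ltb it forms a membrane-bound complex that binds the lymphotoxin beta receptor. TNF receptors and Cd40 signal through TRAF adaptors to the NF-kB transcription factors, and in adult mice lymphotoxin and TNF made by B cells maintain lymphoid tissue architecture. Lta, Tnf and Ltb lie side by side on mouse chromosome 17, within the major histocompatibility complex.

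The promoters of the 3 ligand genes, and of the receptor gene whose signal differed from WT in both mutant groups, are shown because the data bear on whether neighbouring genes moved together. Each is the RefSeq window from 250 bases before to 50 bases after the annotated start, on the gene's own strand, in assembly GRCm38.p6: chr17:35205302-35205601 (minus strand) for Lta, chr17:35201958-35202257 (minus strand) for Tnf, chr17:35194257-35194556 (plus strand) for Ltb and chr4:145246821-145247120 (minus strand) for Tnfrsf1b. Capitals mark GGGNNNNNCC on either strand, a loose form of the NF-kB (kappaB) site, with overlapping matches run together, and TATAAA on the gene's strand, the TATA box.
Lta: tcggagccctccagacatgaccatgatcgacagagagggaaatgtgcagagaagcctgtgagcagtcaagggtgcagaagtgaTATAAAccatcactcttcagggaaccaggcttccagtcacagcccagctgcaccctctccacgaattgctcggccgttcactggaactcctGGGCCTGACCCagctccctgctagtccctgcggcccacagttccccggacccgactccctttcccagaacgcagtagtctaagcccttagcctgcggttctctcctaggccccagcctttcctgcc
Tnf: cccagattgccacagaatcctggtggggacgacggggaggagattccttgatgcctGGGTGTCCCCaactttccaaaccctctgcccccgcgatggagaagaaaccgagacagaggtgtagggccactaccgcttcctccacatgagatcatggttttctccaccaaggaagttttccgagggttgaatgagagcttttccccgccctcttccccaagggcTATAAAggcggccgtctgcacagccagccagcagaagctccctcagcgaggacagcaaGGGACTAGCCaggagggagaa
Ltb: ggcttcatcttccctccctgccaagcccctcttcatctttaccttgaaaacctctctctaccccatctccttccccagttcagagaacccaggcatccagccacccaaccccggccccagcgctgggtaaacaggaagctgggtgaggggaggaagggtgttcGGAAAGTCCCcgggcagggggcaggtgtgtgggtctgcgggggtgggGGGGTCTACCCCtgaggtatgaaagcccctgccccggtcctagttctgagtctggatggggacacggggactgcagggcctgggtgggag
Tnfrsf1b: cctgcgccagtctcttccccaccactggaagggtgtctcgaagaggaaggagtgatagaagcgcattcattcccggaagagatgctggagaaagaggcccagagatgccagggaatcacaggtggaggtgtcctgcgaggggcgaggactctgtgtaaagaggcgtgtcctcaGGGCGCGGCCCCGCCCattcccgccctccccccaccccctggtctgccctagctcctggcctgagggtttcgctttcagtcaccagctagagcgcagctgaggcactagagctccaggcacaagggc

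Of the 10 genes, 9 had a promoter window, Lta among them, and Cd40 had none. A TATAAA lay in the Tnf window at positions -29 to -24 from the start, the usual distance of a TATA box, and in the Lta window at -167 to -162. The other 7 of the 9 member windows held none on either strand, against 13.6% of all 32851 windows with one on either strand. GGGNNNNNCC was found in 9 of 9 member windows and in 50.8% of all windows. In the Ltb window the first match from the left was GGAAAGTCCC, at -87 to -78, read on the opposite strand. The ETS-factor motif CCGGAAGT, found in 3.89% of all windows on either strand, and GCGTGAC, a core of Pax5 sites found in 2.09%, were in 0 of 9. These motifs were chosen after the sequences had been seen, and a match is a stretch of letters, not a measured site.

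RNA was hybridised to Affymetrix Mouse Gene 1.0 ST arrays, on which probes along a gene's exons are summarised as 1 value per transcript cluster, deposited on the log2 scale (a difference of 1 is 2-fold). Array medians were 6.91 to 7.005. Each group was divided into its closest pairs of arrays, called close pairs here, a division that any group would yield. The difference between WT arrays had a standard deviation over clusters of 0.109 for arrays 5 and 7 and 0.117 for arrays 6 and 8. It was 0.27 to 0.28 for every other WT pair, with 199 to 225 clusters over 2-fold apart. Pax5+/- arrays 1 and 3 (0.177) and 2 and 4 (0.122), and Cd72+/-;Pax5+/- arrays 9 and 10 (0.117) and 11 and 12 (0.125), were also closest to each other, against 0.195 to 0.281 for other Pax5+/- pairs and 0.128 to 0.183 for other Cd72+/-;Pax5+/- pairs. The WT pairs thus stood well apart from other WT pairs. The mutant pairs did so less, at the narrowest 0.177 beside 0.195 in Pax5+/- cells and 0.125 beside 0.128 in Cd72+/-;Pax5+/- cells. Whether such a pair repeats 1 sample is not stated. Pro-B cell genes were high on every array: Igll1 (the surrogate light chain) stood at 12.49 to 13.33 and Ebf1 at 11.81 to 12.37, while Ms4a1 (CD20, mature B cells) stood at 4.83 to 5.10, Cd3d (T cells) at 5.43 to 5.86, Ncr1 (NK cells) at 4.78 to 5.14 and Adgre1 (F4/80, macrophages) at 5.11 to 5.27. Other genes of those marker lists were higher, among them Cd74 (6.53 to 8.86), Ccr7 (8.10 to 9.35) and Cd22 (7.53 to 8.54) of mature B cells. Of T cells, Cd3e (6.85 to 7.15), Cd5 (7.43 to 8.13) and Lat (7.83 to 8.70) were higher. So were Klrd1 (5.49 to 7.35) and Nkg7 (6.12 to 7.23) of NK cells. Klrd1 had 6.97, 5.49, 7.35 and 5.83 on WT arrays 5 to 8. Of monocytes and macrophages, Cd68 (7.52 to 8.18), Lyz2 (7.17 to 8.94) and Ccr2 (6.30 to 10.62) were higher. Stromal genes such as Fn1 (7.41 to 10.80) and Bgn (7.24 to 10.96) were also high on some arrays. Xist, the X-inactivation transcript, lay between 11.75 and 11.90 in the Cd72+/-;Pax5+/- group against 5.00 to 5.52 on the other 8 arrays, and the Y-linked Uty ran the opposite way, so in the comparisons of Cd72+/-;Pax5+/- cells genotype and sex cannot be told apart.

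The altered genes check the labels in part. Pax5 stood at 11.31, 11.22, 11.18 and 11.11 on arrays 9 to 12, at 10.65, 11.15, 10.87 and 11.21 on Pax5+/- arrays 1 to 4, and at 11.40, 11.72, 11.49 and 11.66 on WT arrays 5 to 8. Both mutant groups lay below every WT array. In the limma fit described below, the difference from WT was -0.60 in Pax5+/- cells (adjusted p = 0.0051). In Cd72+/-;Pax5+/- cells it was -0.36 and did not pass 0.05 (limma adjusted p = 0.0781). With close pairs averaged it passed in neither (limma adjusted p = 0.289 in Pax5+/- cells and 0.592 in Cd72+/-;Pax5+/- cells). Cd72 stood at 7.34 to 7.67 on Cd72+/-;Pax5+/- arrays and at 10.03 to 10.27 on Pax5+/- arrays, against 8.43 to 9.39 on WT arrays, so Pax5+/- arrays were above WT and Cd72+/-;Pax5+/- arrays below it. Which part of each gene was altered is not given, so a cluster outside it would check nothing.

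Lta, which encodes lymphotoxin alpha, had 8.18, 8.12, 8.42 and 8.46 on Cd72+/-;Pax5+/- arrays 9 to 12. It had 7.18, 7.16, 6.97 and 7.26 on Pax5+/- arrays 1 to 4, and 7.10, 10.14, 7.09 and 10.15 on WT arrays 5 to 8. The WT group thus split into arrays 5 and 7, at the level of the Pax5+/- arrays, and arrays 6 and 8, above every other array of the study, with all Cd72+/-;Pax5+/- arrays in between. The range over the 4 WT arrays was 3.06 log2 units, an 8.34-fold difference, and only 1 of the 23410 clusters with a gene symbol had a wider one. Group means were 8.29 ± 0.17 for Cd72+/-;Pax5+/- cells, 7.14 ± 0.12 for Pax5+/- cells and 8.62 ± 1.76 for WT cells (SD, n = 4 each). The SD in WT cells was larger than every difference between the group means.

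The order of the 3 genotypes for Lta therefore depends on which WT arrays are counted. With all arrays, Cd72+/-;Pax5+/- cells minus WT was -0.33 and Pax5+/- minus WT was -1.48. Without WT arrays 6 and 8 the same differences were 1.20 and 0.05, and without WT arrays 5 and 7 they were -1.85 and -3.00. Cd72+/-;Pax5+/- minus Pax5+/-, which uses no WT array, was 1.15 in log2 units, and the lowest Cd72+/-;Pax5+/- array lay above the highest Pax5+/- array. Neither value against WT describes all 4 WT arrays.

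**Figure D1:**
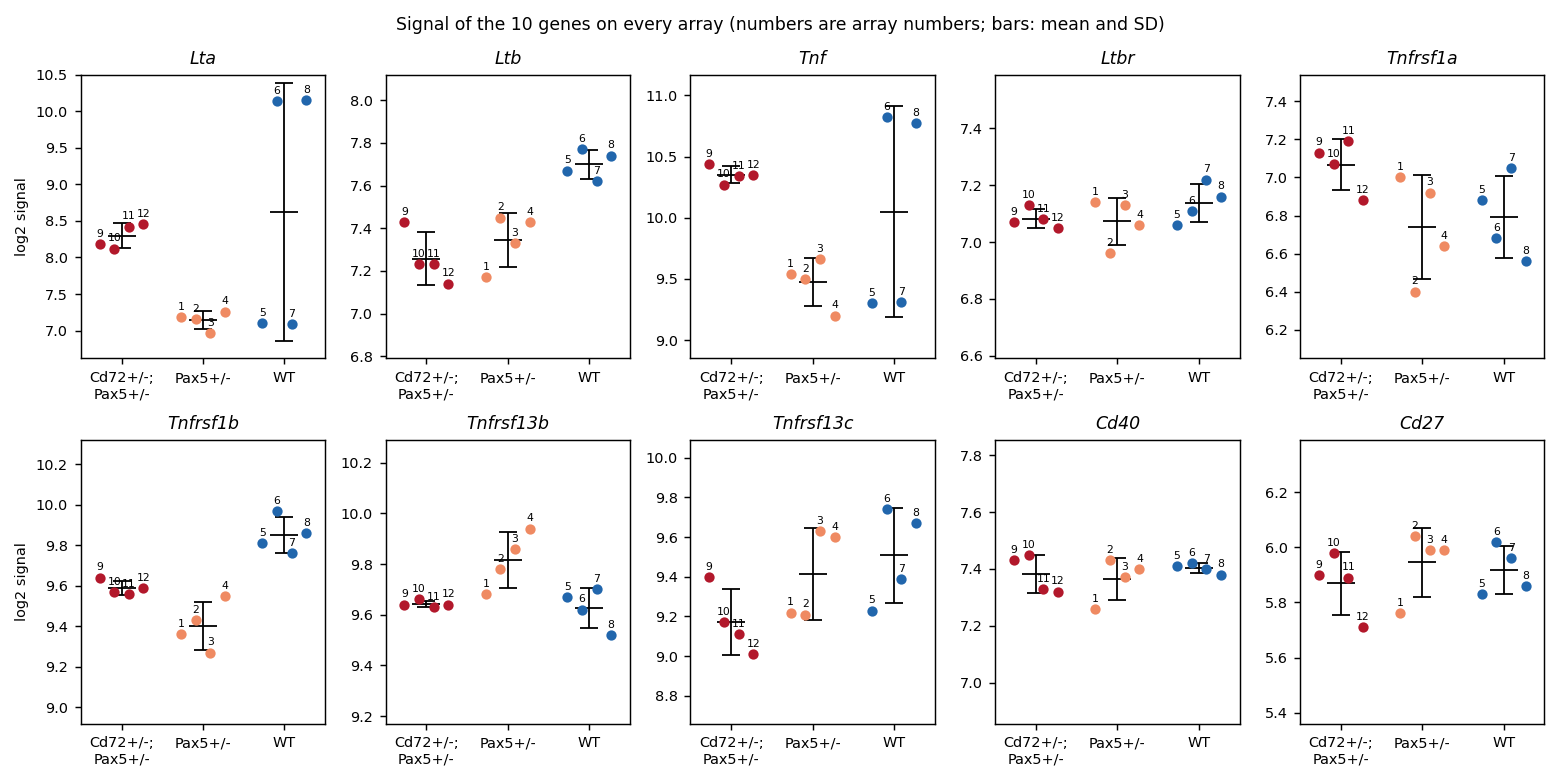
Log2 signal (y axis) of each of the 10 genes on the 12 arrays, by genotype (x axis); points carry array numbers, and bars give the mean and SD of each group. The y axes differ between panels. Lta and Tnf split the WT arrays into 5 and 7 (7.09 and 7.10 for Lta) and 6 and 8 (10.14 and 10.15), whereas the 4 WT arrays of Ltb and Tnfrsf1b lie together above all mutant arrays.

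Tnf, which encodes tumour necrosis factor, had 10.44, 10.27, 10.34 and 10.35 on Cd72+/-;Pax5+/- arrays 9 to 12. It had 9.54, 9.50, 9.66 and 9.20 on Pax5+/- arrays and 9.30, 10.82, 9.31 and 10.77 on WT arrays 5 to 8. WT arrays 6 and 8 were again the highest of all 12 and arrays 5 and 7 lay among the Pax5+/- arrays, with Cd72+/-;Pax5+/- arrays in between. The WT range was 1.52 log2 units (2.87-fold), rank 44 of 23410 clusters. Means were 10.35 ± 0.07 in Cd72+/-;Pax5+/- cells, 9.47 ± 0.20 in Pax5+/- cells and 10.05 ± 0.86 in WT cells (SD, n = 4 each).

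No difference in Tnf passed an adjusted p of 0.05 with all arrays, the threshold used throughout (limma across all 23410 clusters, Benjamini-Hochberg adjustment). Cd72+/-;Pax5+/- cells were 0.88 log2 units above Pax5+/- cells, 1.83-fold, with an SE of 0.31 and an adjusted p of 0.107 in limma, and each Cd72+/-;Pax5+/- array was above each Pax5+/- array. When only these groups entered the limma fit, so that the WT spread was not pooled in, the adjusted p was 0.000112. That fit took the arrays of a close pair as separate replicates. Over 20 alternatives the limma adjusted p of this difference ran from 0.000112 to 0.611. It passed in 2 of them, this fit and array weights, and not with close pairs averaged. Against WT the difference was 0.30 in Cd72+/-;Pax5+/- cells (95% interval -0.38 to 0.98) and -0.57 in Pax5+/- cells (-1.25 to 0.10). Without WT arrays 6 and 8 those were 1.05 (limma adjusted p 5.13e-05) and 0.17 (0.486), and without WT arrays 5 and 7 they were -0.45 (0.0174) and -1.32 (5.59e-06). The sign of the Cd72+/-;Pax5+/- difference from WT thus turned with the WT arrays used. Each of these fits kept only a close pair of WT arrays, 5 and 7 or 6 and 8, which may repeat a sample. Tnf hardly varied within either pair, and the set was chosen by that same split in Lta. The small p-values follow from the split and are no evidence of a difference between genotypes. Other fits without a WT pair, given below, also rest on a single close pair of WT arrays.

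**Figure D2:**
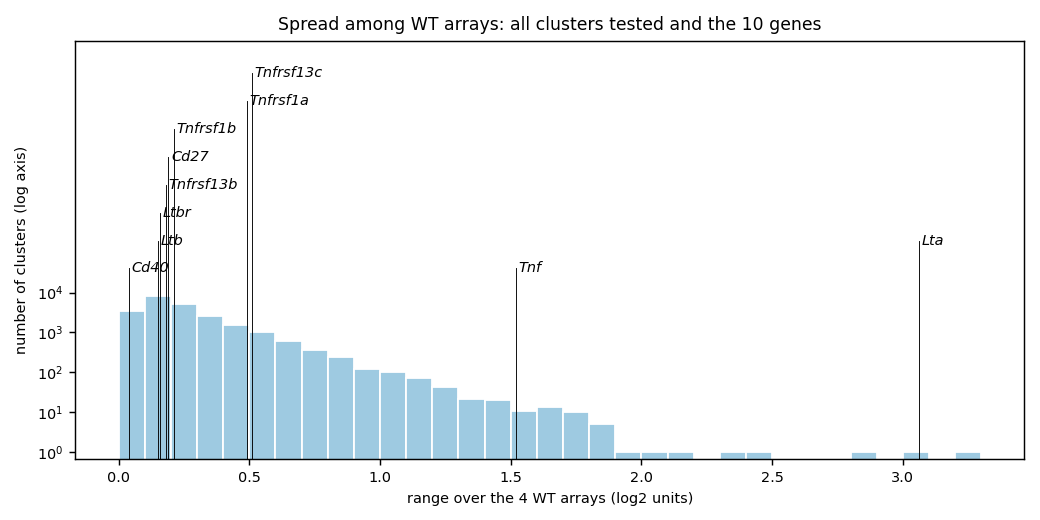
Number of transcript clusters (log axis) by their range over the 4 WT arrays in log2 units (x axis, bins of 0.1), with vertical lines at the 10 genes, whose heights only make room for the names. Lta, at 3.06, and Tnf, at 1.52, lie in the far tail, and the other 8 genes lie at 0.51 or below.

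Ltb, which encodes lymphotoxin beta, the membrane anchor of the lymphotoxin complex, fell in both mutant groups. It had 7.43, 7.23, 7.23 and 7.14 on Cd72+/-;Pax5+/- arrays and 7.17, 7.45, 7.33 and 7.43 on Pax5+/- arrays, against 7.67, 7.77, 7.62 and 7.74 on WT arrays. Every WT array was above every mutant array, and the mutant groups overlapped each other. In Cd72+/-;Pax5+/- cells the fall was 0.44 log2 units, 1.36-fold (mean 7.26 ± 0.12, against 7.70 ± 0.07 in WT cells, SD, n = 4 each, limma SE 0.07, adjusted p = 0.00224). In Pax5+/- cells it was 0.35 log2 units, 1.28-fold (mean 7.34 ± 0.13, limma SE 0.07, adjusted p = 0.00966). The difference between the mutant groups was -0.09 (95% interval -0.25 to 0.07, limma adjusted p = 0.567).

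Ltb ranged over 0.15 log2 units among the WT arrays, with arrays 6 and 8 the higher as for Lta and Tnf. Its fall was -0.39 in Cd72+/-;Pax5+/- cells without WT arrays 6 and 8 (limma adjusted p = 0.0149) and -0.50 without arrays 5 and 7 (0.00443). In Pax5+/- cells it was -0.30 without WT arrays 6 and 8, which no longer passed (limma adjusted p = 0.0863), and -0.41 without arrays 5 and 7 (0.0087). With each close pair of arrays averaged to 1 replicate, neither fall passed (limma adjusted p = 0.162 in Cd72+/-;Pax5+/- cells and 0.287 in Pax5+/- cells).

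The 3 ligand genes are neighbours, so the genes on either side show whether the whole stretch split among WT arrays. In chromosome order the stretch reads Apom, Bag6, Prrc2a, Aif1, Lst1, Ltb, Tnf, Lta, Nfkbil1, Atp6v1g2, Ddx39b, H2-D1 and H2-Q1, and the outer 8 genes matched to a cluster with a single symbol were compared (H2-D1 and H2-Q1 were not). Their WT ranges were 0.09 to 0.67 log2 units, against 3.06 for Lta and 1.52 for Tnf. Prrc2a, an RNA-binding protein gene, had the widest, at 10.07, 10.71, 10.04 and 10.61 on WT arrays 5 to 8, with arrays 6 and 8 again high. Arrays 6 and 8 were also above arrays 5 and 7 for Bag6, Apom and Ddx39b (WT ranges 0.35, 0.19 and 0.13), and below them for Lst1 and Aif1 (0.41 and 0.20). Nfkbil1, next to Lta, ranged over 0.09 and Atp6v1g2 over 0.10, with no split of arrays 6 and 8 from 5 and 7. Ltb, next to Tnf, ranged over 0.15. Of the 8, only Ddx39b, an RNA helicase gene, passed in any comparison, with 0.24 in Cd72+/-;Pax5+/- cells over Pax5+/- cells (limma adjusted p = 0.00366).

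**Figure D3:**
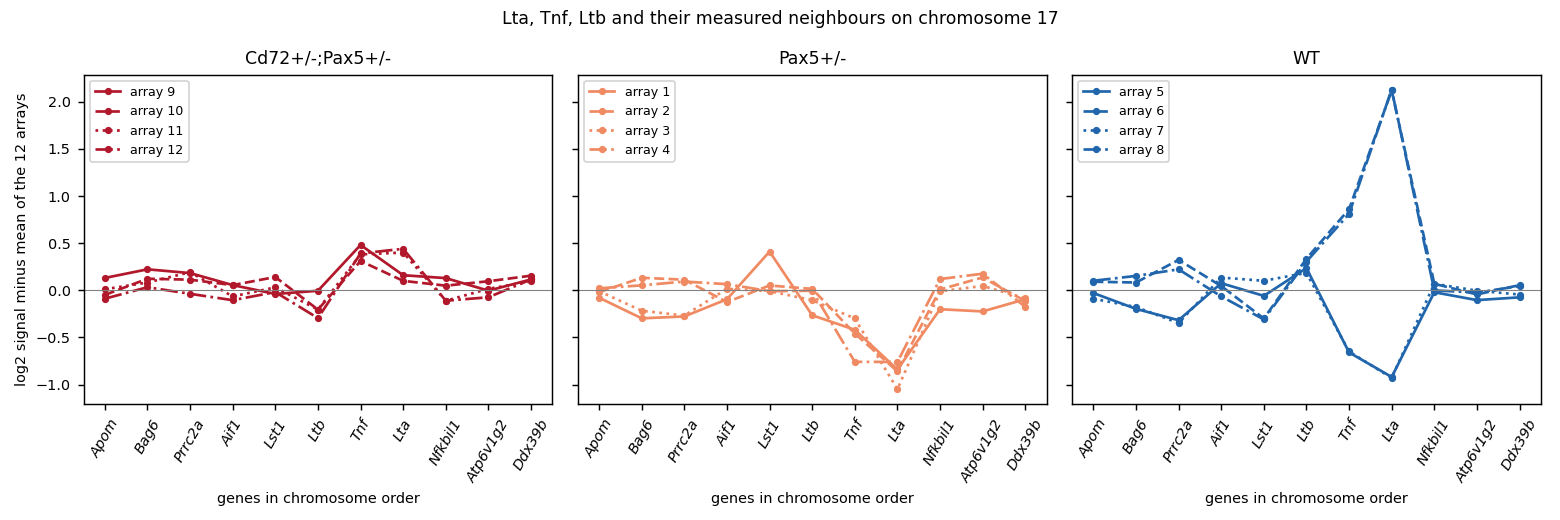
Log2 signal minus the gene's mean over the 12 arrays (y axis) for the 11 measured genes around Lta in chromosome order (x axis, not to distance), 1 line per array, 1 panel per genotype. In WT cells Tnf and Lta separate arrays 6 and 8 from arrays 5 and 7 most widely, by 3.06 log2 units for Lta, while Nfkbil1 ranges over 0.09 and Ltb over 0.15.

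Tnfrsf1b, which encodes TNF receptor 2, also fell in both mutant groups. It had 9.64, 9.57, 9.56 and 9.59 on Cd72+/-;Pax5+/- arrays and 9.36, 9.43, 9.27 and 9.55 on Pax5+/- arrays, against 9.81, 9.97, 9.76 and 9.86 on WT arrays. The 3 groups did not overlap, with WT highest, Cd72+/-;Pax5+/- next and Pax5+/- lowest. The fall was 0.45 log2 units in Pax5+/- cells, 1.36-fold (9.40 ± 0.12, against 9.85 ± 0.09 in WT cells, SD, n = 4 each, limma SE 0.06, adjusted p = 0.000549). It was 0.26 in Cd72+/-;Pax5+/- cells, 1.20-fold (9.59 ± 0.04, limma SE 0.06, adjusted p = 0.0241). Cd72+/-;Pax5+/- minus Pax5+/- was 0.19 (95% interval 0.05 to 0.33), which did not pass (limma adjusted p = 0.0885).

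The Pax5+/- fall in Tnfrsf1b was -0.38 without WT arrays 6 and 8 (limma adjusted p = 0.00705) and -0.51 without arrays 5 and 7 (0.000515). In Cd72+/-;Pax5+/- cells it was -0.20 without WT arrays 6 and 8 (limma adjusted p = 0.105) and -0.33 without arrays 5 and 7 (0.0158). The Cd72+/-;Pax5+/- call was also lost when any single array among 6, 8, 10, 11 and 12 was left out, with limma adjusted p from 0.0551 (without array 8) to 0.0701 (without array 10). With close pairs averaged it passed in neither (limma adjusted p = 0.122 in Pax5+/- cells and 0.392 in Cd72+/-;Pax5+/- cells).

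Tnfrsf1a, which encodes TNF receptor 1, the death-domain receptor, had 7.13, 7.07, 7.19 and 6.88 on Cd72+/-;Pax5+/- arrays, 7.00, 6.40, 6.92 and 6.64 on Pax5+/- arrays and 6.88, 6.68, 7.05 and 6.56 on WT arrays. All groups overlapped, and arrays 5 and 7 were here the higher WT arrays. Cd72+/-;Pax5+/- cells were 0.33 above Pax5+/- cells (95% interval 0.03 to 0.62) and 0.28 above WT cells (-0.02 to 0.57), and neither passed (limma adjusted p = 0.170 and 0.293). Ltbr, the lymphotoxin beta receptor gene, lay between 6.96 and 7.22 on all 12 arrays. Its differences were -0.06 in Cd72+/-;Pax5+/- cells against WT (-0.17 to 0.06), -0.07 in Pax5+/- cells against WT (-0.18 to 0.05) and 0.01 between the mutant groups (-0.10 to 0.12). These intervals hold no change above 0.18 in size. Like all intervals given here, they take the arrays of a close pair as separate replicates, so a larger change is not excluded.

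Tnfrsf13b encodes TACI, a receptor of BAFF and APRIL that restrains B-cell numbers. It had 9.64, 9.66, 9.63 and 9.64 on Cd72+/-;Pax5+/- arrays, 9.68, 9.78, 9.86 and 9.94 on Pax5+/- arrays and 9.67, 9.62, 9.70 and 9.52 on WT arrays. All Pax5+/- arrays lay above the Cd72+/-;Pax5+/- arrays and 3 of the 4 above every WT array. The difference was 0.19 for Pax5+/- over WT (limma adjusted p = 0.0820) and -0.17 for Cd72+/-;Pax5+/- against Pax5+/- (0.0916), neither passing, and 0.01 for Cd72+/-;Pax5+/- against WT (95% interval -0.11 to 0.14). Tnfrsf13c encodes the BAFF receptor, needed by maturing B cells. It had 9.40, 9.17, 9.11 and 9.01 on Cd72+/-;Pax5+/- arrays, 9.22, 9.21, 9.63 and 9.60 on Pax5+/- arrays and 9.23, 9.74, 9.39 and 9.67 on WT arrays. The groups overlapped, and Cd72+/-;Pax5+/- cells were 0.34 below WT cells without passing (95% interval -0.63 to -0.04, limma adjusted p = 0.180). Without WT arrays 5 and 7 that difference was -0.53 and passed (limma adjusted p = 0.0273), while without arrays 6 and 8 it was -0.14 (0.650).

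Cd40, the receptor through which T cells activate B cells, was the steadiest of the 10 among WT arrays, with 7.43, 7.45, 7.33 and 7.32 on Cd72+/-;Pax5+/- arrays, 7.26, 7.43, 7.37 and 7.40 on Pax5+/- arrays and 7.41, 7.42, 7.40 and 7.38 on WT arrays. All groups overlapped, and the 95% intervals of the 3 differences lay within -0.14 and 0.12. Cd27, a receptor of CD70 best known on T cells and memory B cells, had 5.90, 5.98, 5.89 and 5.71 on Cd72+/-;Pax5+/- arrays, 5.76, 6.04, 5.99 and 5.99 on Pax5+/- arrays and 5.83, 6.02, 5.96 and 5.86 on WT arrays. Its groups overlapped, its intervals lay within -0.24 and 0.19, and it was the 1 gene of the 10 that did not reach 6 on at least 4 arrays, and 27.8% of all clusters had a lower mean.

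Counted over the 9 tested genes, 2 fell and 0 rose in Cd72+/-;Pax5+/- cells against WT (Ltb and Tnfrsf1b), where 7.78% of all 23410 clusters were called, 4.12% higher and 3.66% lower. The same count, 2 fallen and 0 risen, held for Pax5+/- against WT, where 7.47% of clusters were called, 4.28% higher and 3.2% lower. Both comparisons share the 4 WT arrays and are not independent. The arrays did not overlap for 2 of the 9 in each, all lower, where 14.8% of clusters did so in Cd72+/-;Pax5+/- cells (7.23% lower) and 10.7% in Pax5+/- cells (4.87% lower). The median difference over the 9 genes was -0.05 in Cd72+/-;Pax5+/- cells and -0.07 in Pax5+/- cells, beside 0.0025 and -0.005 over all clusters. Between Cd72+/-;Pax5+/- and Pax5+/- cells limma called 0 of the 9, where 9.79% of clusters were called. At an unadjusted p under 0.05 limma gave 4 (Tnf, Tnfrsf1a, Tnfrsf1b and Tnfrsf13b), beside 22.2% of clusters, and for 3 the arrays did not overlap (Tnf and Tnfrsf1b higher, Tnfrsf13b lower), beside 18.5% of clusters (9.59% higher, 8.91% lower). The study's own threshold, an unadjusted p under 0.05 with a change over 2-fold, was met by 0 of the 9 in every comparison, and by 0.914% of clusters in Cd72+/-;Pax5+/- cells against WT, 0.961% in Pax5+/- cells against WT and 1.2% between the mutant groups.

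**Figure D4:**
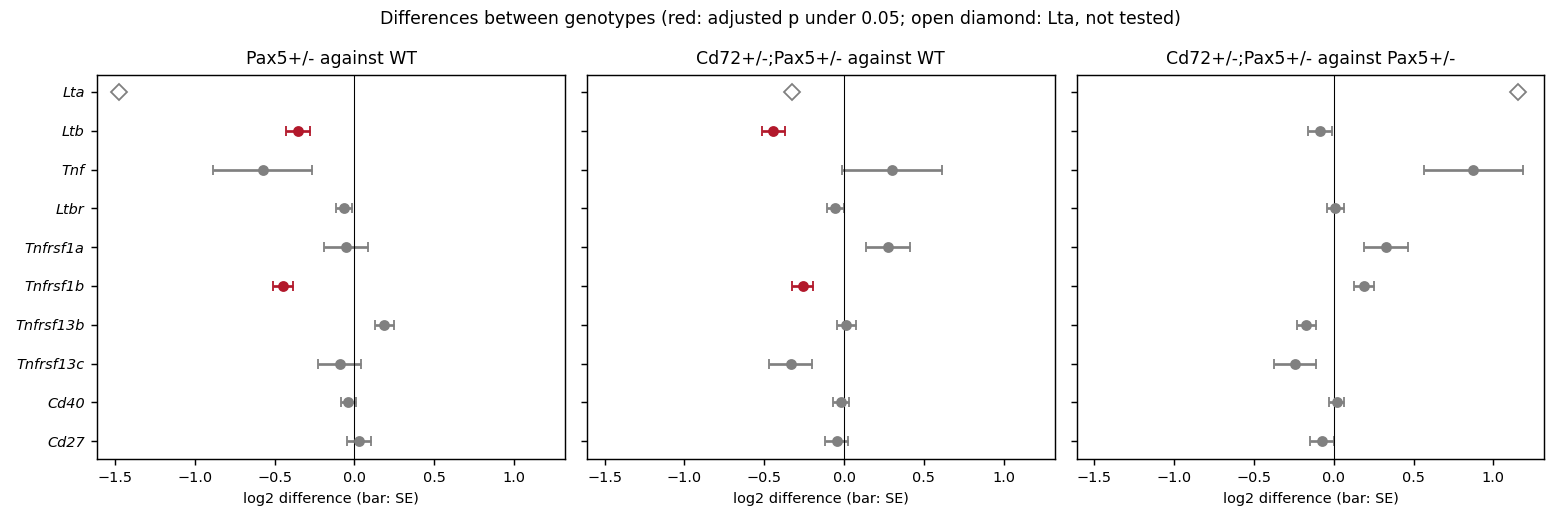
Difference in log2 signal (x axis, same scale in all panels) of each gene in 3 comparisons, with bars for the limma SE. Red points passed an adjusted p of 0.05 (Ltb and Tnfrsf1b, against WT), and the open diamonds give Lta, which was not tested.

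Among the 10 genes, Lta and Tnf ran most closely together over the 12 arrays (Pearson r = 0.913, Spearman rho = 0.790), and Ltb ran with Tnfrsf1b (r = 0.776, rho = 0.670) but hardly with Lta (r = 0.380, rho = 0.063). These 12 points share genotypes and close pairs, so the coefficients only describe the arrays. Over all clusters with a single symbol, the 5 most like Lta were Cdc25a, a cell-cycle phosphatase gene (r = 0.987), Prkch, a protein kinase C gene (0.986), Mfng, a modifier of Notch (0.985), Nek6, a mitotic kinase gene (0.984), and Acly, which makes cytosolic acetyl-CoA (0.982). Their Spearman rho with Lta was lower, 0.80 (Acly) to 0.88 (Nek6). The 5 most like Ltb were B3galt1 (r = 0.939), Spns1 (0.937), Etv3 (0.928), Rab21 (0.928) and Gpr132 (0.928), with rho from 0.81 (Gpr132) to 0.92 (B3galt1).

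The WT split of Lta and Tnf came with differences in pro-B cell genes on the same arrays. The mean of 13 pro-B cell markers was 11.33 to 11.52 on Cd72+/-;Pax5+/- arrays and 11.62 to 11.75 on Pax5+/- arrays, against 11.84 and 11.88 on WT arrays 5 and 7 and 11.01 and 10.96 on WT arrays 6 and 8, where Lta and Tnf were highest. Of the 13 markers, 5 ranged over more than 1 log2 unit in WT cells. They include Rag2, of the recombinase, at 10.25, 8.74, 10.23 and 8.79 on WT arrays 5 to 8, Dntt (terminal transferase) at 11.93, 9.76, 11.92 and 9.82, and Il7r (the interleukin-7 receptor) at 12.47, 11.12, 12.44 and 11.07. On the Cd72+/-;Pax5+/- arrays Dntt was 8.29 to 8.85. The mean of 12 stromal markers was 6.90 to 7.26 on Cd72+/-;Pax5+/- arrays and 8.35, 7.17, 8.43 and 7.20 on Pax5+/- arrays 1 to 4. On WT arrays 5 to 8 it was 8.62, 7.98, 8.62 and 7.98, so arrays 5 and 7 were higher in this mean too. It covers unlike genes. Fn1 stood at 7.41 to 8.60 on Cd72+/-;Pax5+/- arrays and at 10.70, 8.36, 10.80 and 8.36 on Pax5+/- arrays 1 to 4. On WT arrays 5 to 8 Fn1 stood at 10.80, 9.32, 10.69 and 9.37. Lepr and Dcn stayed at 4.70 to 4.92 on all 12 arrays. Alpl was higher on WT arrays 6 and 8, at 10.76, 11.34, 10.85 and 11.42 on arrays 5 to 8. T-cell markers averaged 6.53 to 6.67, 6.56 to 6.64 and 6.61 to 6.68 in Cd72+/-;Pax5+/-, Pax5+/- and WT cells, and NK-cell markers 5.79 to 5.84, 5.82 to 5.94 and 5.71 to 6.00. Monocyte markers averaged 6.48 to 6.51, 6.69 to 6.76 and 6.62 to 6.93, and markers of immature and mature B cells 6.62 to 6.70, 6.17 to 6.28 and 6.34 to 6.49. The part of any of these in the Lta and Tnf values was not tested, and in sorted cells taken in bulk a change in the makeup of the cells and a change of RNA within each cell cannot be told apart.

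**Figure D5:**
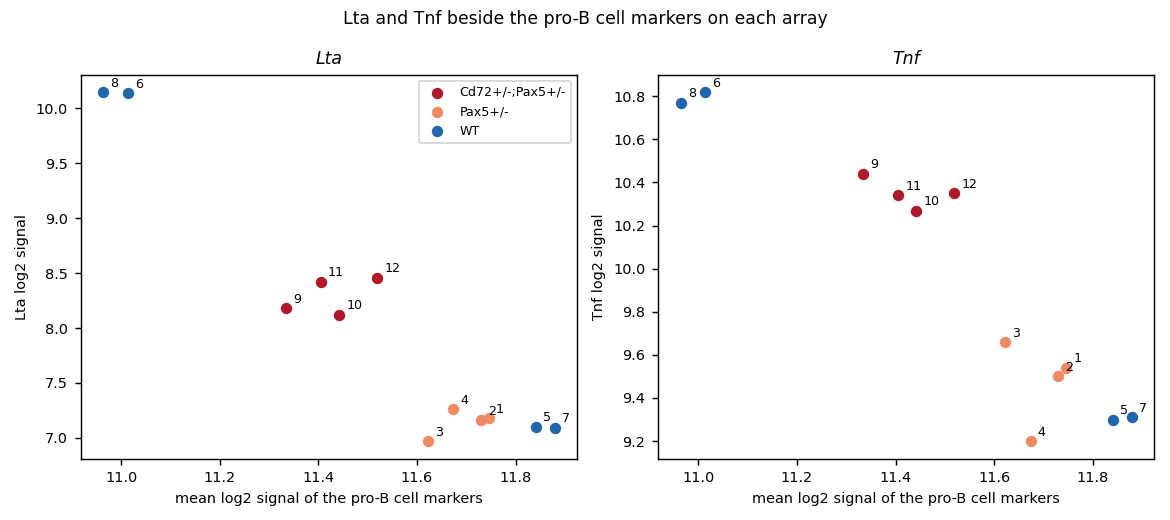
Log2 signal of Lta (left) and Tnf (right) on each array (y axes) against the mean log2 signal of the 13 pro-B cell markers on that array (x axes), coloured by genotype and labelled with array numbers. WT arrays 6 and 8 have the highest Lta and Tnf and the lowest marker means (11.01 and 10.96), and WT arrays 5 and 7 the highest marker means (11.84 and 11.88).

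Of 74 other genes of the pathway (further ligands and receptors of the family, adaptors, NF-kB genes and NF-kB response genes), 6 rose and 2 fell in Cd72+/-;Pax5+/- cells against WT, 10.8% beside 7.78% of all clusters. In Pax5+/- cells against WT 1 rose and 6 fell, 9.46% beside 7.47%, and in Cd72+/-;Pax5+/- against Pax5+/- cells 9 rose and 3 fell, 16.2% beside 9.79%. Of 13 measured ligands, Tnfsf10, which encodes the death ligand TRAIL, changed most. It had 6.47, 6.38, 6.37 and 6.69 on Cd72+/-;Pax5+/- arrays and 7.46, 7.62, 7.53 and 7.47 on Pax5+/- arrays, against 8.82, 8.18, 8.82 and 8.29 on WT arrays. The groups did not overlap, and against WT it fell by 2.05 log2 units in Cd72+/-;Pax5+/- cells, 4.14-fold (limma adjusted p = 9.4e-07), and by 1.01 in Pax5+/- cells (0.000402). Cd72+/-;Pax5+/- cells were also below Pax5+/- cells, with a difference of -1.04 (limma adjusted p = 0.000249). Tnfsf11, which encodes RANKL, fell in Cd72+/-;Pax5+/- cells by 0.74 against WT (limma adjusted p = 0.00262) and by 0.60 against Pax5+/- (0.00942). Its WT arrays 5 to 8 stood at 9.83, 10.41, 9.87 and 10.36, and without arrays 6 and 8 the difference from WT was -0.47 (limma adjusted p = 0.00356). Tnfsf8, the CD30 ligand gene, fell by 0.65 in Pax5+/- cells against WT (limma adjusted p = 0.00734) and was 0.82 higher in Cd72+/-;Pax5+/- than in Pax5+/- cells (0.00108). Tnfsf8 also had arrays 6 and 8 high among the WT arrays, at 7.67, 8.17, 7.80 and 8.26, and without them the Pax5+/- difference from WT was -0.41 and did not pass (limma adjusted p = 0.0525). Tnfsf4, the OX40 ligand gene, rose by 0.23 in Cd72+/-;Pax5+/- cells against WT (limma adjusted p = 0.0377) and by 0.25 against Pax5+/- (0.0227). Its signal was low, at 4.95 to 5.34 over all 12 arrays, under the level of 6 used for dim clusters.

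Of the 21 other receptors, Tnfrsf18 (GITR) rose by 0.60 in Cd72+/-;Pax5+/- cells against WT (limma adjusted p = 2.71e-05) and by 0.78 against Pax5+/- (2.37e-06). Tnfrsf10b, the mouse TRAIL receptor, rose by 0.30 in Cd72+/-;Pax5+/- cells against WT (limma adjusted p = 0.0233), and Tnfrsf14 (HVEM), a receptor that lymphotoxin alpha can also bind, fell by 0.22 in Pax5+/- cells (0.0211). Among 15 adaptors and ubiquitin ligases, Traf4 fell by 0.50 in Pax5+/- cells against WT (limma adjusted p = 0.0332) and was 0.60 higher in Cd72+/-;Pax5+/- than in Pax5+/- cells (0.00953), where Fadd, the death-domain adaptor gene, fell by 0.27 (0.0276). Traf4 stood at 10.07, 10.69, 10.11 and 10.60 on WT arrays 5 to 8, arrays 6 and 8 again high, and its Pax5+/- difference from WT was -0.22 without those arrays (limma adjusted p = 0.162) and -0.78 without arrays 5 and 7 (5.23e-05). Of 10 classical NF-kB genes only Nfkbie, an inhibitor also listed with the response genes, passed, falling by 0.36 in Pax5+/- cells (limma adjusted p = 0.0277). Of 4 genes listed as alternative NF-kB, Nfkbid, an atypical IkB gene, fell by 0.32 in Pax5+/- cells against WT (limma adjusted p = 0.0478) and was 0.45 higher in Cd72+/-;Pax5+/- than in Pax5+/- cells (0.00557). Nfkbid had 7.88, 8.18, 7.83 and 8.15 on WT arrays 5 to 8. Without WT arrays 6 and 8 neither Nfkbid (-0.17, limma adjusted p = 0.348) nor Tnfrsf14 (0.0867) passed in Pax5+/- cells, nor did Tnfrsf10b in Cd72+/-;Pax5+/- cells (0.19, 0.120). Without arrays 5 and 7 Nfkbie did not pass in Pax5+/- cells (limma adjusted p = 0.115), nor Tnfsf4 in Cd72+/-;Pax5+/- cells (0.197).

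Of 17 NF-kB response genes, 3 rose and 0 fell in Cd72+/-;Pax5+/- cells against WT, beside 4.12% of all clusters higher and 3.66% lower. The 3 are chemokine genes. Ccl3 rose by 3.25 in Cd72+/-;Pax5+/- cells (limma adjusted p = 3.18e-07) and by 2.83 in Pax5+/- cells (9.19e-07), the 1 response gene to rise there. It split the WT arrays as well, at 7.09, 6.37, 7.24 and 6.19 on arrays 5 to 8, with arrays 6 and 8 the lower, the opposite of Lta. Ccl4 rose by 0.78 (limma adjusted p = 9.22e-06) and Cxcl10 by 0.51 (0.000907) in Cd72+/-;Pax5+/- cells against WT, and by 0.70 (1.76e-05) and 0.46 (0.00166) against Pax5+/- cells. Both were low on the WT and Pax5+/- arrays, Ccl4 at 6.02 to 6.34 and Cxcl10 at 5.59 to 5.83. Against Pax5+/- cells Tnip1 and Nfkbiz, both feedback regulators, also rose, by 0.28 (limma adjusted p = 0.0220) and 0.22 (0.0285). With close pairs averaged, the calls that passed in these lists were Tnfsf10, Tnfrsf18, Ccl3 and Ccl4 in Cd72+/-;Pax5+/- cells against WT, Ccl3 in Pax5+/- cells against WT, and Tnfrsf18 and Ccl4 between the mutant groups. At least 1 single array left out also ended the calls of Tnfsf4 and Tnfrsf10b in Cd72+/-;Pax5+/- cells against WT, of Tnfrsf14, Traf4, Nfkbie and Nfkbid in Pax5+/- cells against WT, and of Tnfsf4, Fadd, Nfkbiz and Tnip1 between the mutant groups. All of the calls against WT share the 4 WT arrays.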

How the data were processed

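Values are the log2 signals deposited by the authors for 28944 transcript clusters on 12 arrays. TRIzol extraction, enzymatic fragmentation and biotin labelling are stated per the labels' protocols. Per the series' design text, the arrays were analysed in Transcriptome Analysis Console 4.0.3. How the background was corrected, how arrays were normalized and which genome build was used is not given in the sources used here. The neighbours therefore carry only names and order from the RefSeq table of assembly GRCm38.p6. Groups came from the sample titles. All 23410 clusters with a gene symbol entered 1 limma 3.58.1 fit in R 4.3.3, with a mean per group (9 residual and 3.28 prior degrees of freedom), no second normalization and no filter, Benjamini-Hochberg adjustment over all clusters and a threshold of 0.05. A gene with several clusters is given by the one with the highest mean. Motif searches and tables used Python 3.11.15 with pandas 2.3.3, and figures matplotlib 3.10.9. The fit was tested on simulated data with known changes.

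The 10 genes, the related gene lists and the marker lists were chosen with earlier results of these data known. Every one of the 10 is named. In each related list and comparison up to 4 called genes with the smallest adjusted p are named, as are the 5 clusters most correlated with Lta and with Ltb, Pax5 and Cd72, 5 coding neighbours on each side, and each marker list by its range with its defining genes. Xist and Uty, the marker genes other than the defining ones, and the array values or ranges of Ccl3, Ccl4, Cxcl10, Tnfsf4, Tnfsf8, Tnfsf10, Tnfsf11, Traf4 and Nfkbid were chosen after their values were seen. Markers of granulocytes, plasmacytoid dendritic cells, plasma cells, endothelium and erythroid cells were also averaged. Their means in Cd72+/-;Pax5+/-, Pax5+/- and WT cells were 5.98 to 6.05, 5.98 to 6.16 and 5.92 to 6.07 for granulocytes, 7.67 to 7.71, 7.46 to 7.61 and 7.53 to 7.79 for plasmacytoid dendritic cells, and 7.91 to 7.96, 7.87 to 8.10 and 7.92 to 8.05 for plasma cells. They were 6.34 to 6.50, 6.50 to 6.67 and 6.35 to 6.60 for endothelium and 7.54 to 7.62, 7.26 to 7.60 and 7.56 to 7.62 for erythroid cells. Alternatives covered scaling, a filter on dim clusters (at least 6 on at least 4 arrays), the clusters and arrays fitted, the variance prior, array weights, thresholds, the close pairs and leaving out arrays. The number of arrays limits the precision.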

Additional observations from a re-analysis of the deposited data

How the results depend on the processing

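Of 573 values for the 9 tested genes under the alternatives, 521 kept their direction and side of the threshold, 19 no longer passed, 14 newly passed and 19 turned in sign. Only the calls of Ltb and Tnfrsf1b against WT could stop passing, and most of the 573 values belong to differences that were never called. In Cd72+/-;Pax5+/- cells Tnfrsf1b no longer passed in 12 of 22 alternatives and Ltb in 2 of 22. In Pax5+/- cells Tnfrsf1b no longer passed in 2 of 22 and Ltb in 3 of 22. The cause of these changes was not tested. Averaging close pairs left 0 of the 9 tested genes called in every comparison, with 1.24% of all clusters called in Cd72+/-;Pax5+/- cells against WT and 1.2% in Pax5+/- cells, and the study's 2-fold rule also left 0. In Cd72+/-;Pax5+/- cells against WT, 1 gene (Ltb) was called with quantile scaling, with a common median, with a trended robust prior and with pairs as a random block, and 4 without WT arrays 5 and 7 (Ltb, Tnf, Tnfrsf1b and Tnfrsf13c), where 11.3% of all clusters were called. In Pax5+/- cells against WT, 1 (Tnfrsf1b) was called without WT arrays 6 and 8 (7.21% of all clusters), and 4 without arrays 5 and 7 (Ltb, Tnf and Tnfrsf1b lower, Tnfrsf13b higher), where 17.9% of all clusters were called. Between the mutant groups, 1 was called with those groups alone (Tnf), 3 with array weights (Tnf, Tnfrsf1a and Tnfrsf13b) and 2 at an adjusted p under 0.1 (Tnfrsf1b and Tnfrsf13b). Leaving out each array in turn gave 1 to 2 called in Cd72+/-;Pax5+/- cells against WT, with Ltb alone left without array 6, 8, 10, 11 or 12, 2 to 3 in Pax5+/- cells against WT, and 0 to 1 between the mutant groups, where Tnfrsf13b passed without array 1 and Tnfrsf1b without array 4.

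For Lta, which has no test, 5 of 64 values turned in sign. They were 0.0475 in Pax5+/- cells against WT without WT arrays 6 and 8, and, in Cd72+/-;Pax5+/- cells against WT, 1.2 without WT arrays 6 and 8, 0.225 with array weights and 0.182 and 0.185 without array 6 or 8 (-0.835 to 0.185 over single arrays left out).

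Among the 9 tested genes signs turned in Cd72+/-;Pax5+/- cells against WT for Tnf without WT arrays 5 and 7 (-0.445), and for Tnfrsf13b with array weights (-0.00589), without WT arrays 6 and 8 (-0.0425) and over single arrays left out (-0.0208, without array 8, to 0.0392). Without array 12 they turned for Cd40 (-0.0425 to 0.000833 over single arrays left out) and Cd27 (-0.0842 to 0.00583). In Pax5+/- cells against WT they turned for Tnf without WT arrays 6 and 8 (0.17), for Tnfrsf13c with array weights (0.000849) and without WT arrays 6 and 8 (0.105), and for Tnfrsf1a without WT arrays 5 and 7 (0.12). Over single arrays left out, Tnfrsf1a gave -0.139 to 0.0608, positive without array 2 or 7, and Cd27 gave -0.00417 to 0.0892, negative without array 2 or 5. Between the mutant groups they turned for Cd40 with array weights (-0.00244) and without array 1 or 10 (-0.0175 to 0.0392 over single arrays left out), and for Ltbr without array 2 or 10 (-0.0275 to 0.0325). Of the turned values only that of Tnf in Cd72+/-;Pax5+/- cells passed (limma adjusted p = 0.0174), in a fit whose WT arrays were a single close pair.

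No paired analysis was possible because the labels share no replicate number between groups. Each of the 10 genes has 1 cluster, so averaging a gene's clusters changes nothing, and Cd27 has no value under the filter on dim clusters. In 27 tests for a single array far from the rest of its group (Dixon's ratio against 0.829, Lta not tested), 0 were found, but this ratio cannot pick out a split into pairs such as that of Tnf in WT cells. With 4 arrays a group, genotype, any array pairing and, for Cd72+/-;Pax5+/- cells, sex rest on few samples.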
